A study of Mus musculus with 4 samples.

Results

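Genes used to mark mesenchymal and skeletal stem cells, 10 in number, were followed in sorted mouse periosteal cells: *Prrx1*, *Ly6a*, *Cd34*, *Thy1*, *Eng*, *Nt5e*, *Mcam*, *Lepr*, *Cd200* and *Vcam1*. They were chosen by name, and all 10 had a value in all 4 libraries, among 14415 genes with 4 values and 45802 gene symbols in the table. The study compared PDGFRα reporter+ with PDGFRα reporter- periosteal cells by total RNA sequencing, with 2 libraries of each population. Both populations came from male PDGFRα-mTmG mice aged 9 to 10 weeks, in which the *Pdgfra* promoter drives a tamoxifen-dependent Cre. All animals had received tamoxifen at 150 mg/kg per day for 5 d, and the hindlimb bones were digested 14 d after the last dose. Cre switches a cell and its progeny from membrane tdTomato to membrane GFP for good, so that the reporter records past and not present activity of the promoter. The labels give a pool of 3 to 6 mice for each cell population, and the methods give a higher range. The cells were grown for 1 passage with 10 ng/mL bFGF and sorted as CD31-CD45-Ter119-, with GFP for reporter+ and tdTomato for reporter- cells. In such bulk samples, fewer cells of a type and less RNA per cell cannot be told apart.

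Mesenchymal stem and progenitor cells have no single defining gene and are recognised by combinations of surface proteins, most of them found on other cells too. In mouse, SCA-1 (*Ly6a*), CD90 (*Thy1*), CD105 (*Eng*), CD73 (*Nt5e*), CD106 (*Vcam1*), CD146 (*Mcam*) and CD200 (*Cd200*) are the antigens used in sorting panels for skeletal stem cells, whereas *Lepr* and *Prrx1* are widely used as Cre drivers. CD34 is best known from hematopoietic and endothelial cells and also occurs on fibroblastic cells of connective tissue.

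The libraries are named here by population and by the number, 2 or 3, in the headings of the deposited table. The labels number the replicates 1 and 2 and do not say what a heading number stands for, and nothing states that the libraries came from separate cultures, so that p-values measure only the spread between these libraries. Values are log2 expression values after quantile normalization, with a median of 1.48 in each library and a range from −10.07 to 11.73, and a gene without signal is blank. The read depth is unknown. The median over genes in 5 classes of transcript length, from under 1000 to over 8000 bases, lay between 1.43 and 1.94, so that levels of different genes were compared on this scale, although its linear unit is not given in the sources used here. *Pdgfra*, whose promoter drives the reporter, was at 7.78 and 7.62 in the reporter+ libraries and at 7.87 and 7.44 in the reporter- libraries, so the populations overlapped in the transcript of that gene. The labels call the cells periosteal stromal cells, and all 6 fibroblast and stroma markers had values in all 4 libraries, with *Col1a1* between 7.44 and 7.85. None of the 6 was called between the populations after adjustment. The populations did not overlap in *Lum* (1.83, SE 0.33) and *Dcn* (1.39, SE 0.39), with reporter+ higher (7.59% of all genes), and in *Fn1* (−0.54, SE 0.46), with reporter+ lower (8.1%).

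The 10 markers spanned a distance of 8.77 between their mean log2 values, or 437-fold. *Ly6a* was highest, with a mean of 8.43, at percentile 99.6 of all genes. *Vcam1* (5.68) and *Thy1* (5.52) came next, above the 96th percentile, and did not differ in order beyond the spread of their libraries. *Prrx1* (3.79), *Eng* (3.47), *Cd34* (3.23) and *Nt5e* (2.76) followed, and the 4-library ranges of each neighbouring pair overlapped. *Cd200* (−0.10), *Mcam* (−0.33) and *Lepr* (−0.34) were lowest, below the median of all genes in each library, and again could not be put in order. Each of *Ly6a* over *Vcam1*, *Thy1* over *Prrx1*, and *Nt5e* over *Cd200* held in all 4 libraries without overlap.

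**Figure D1:**
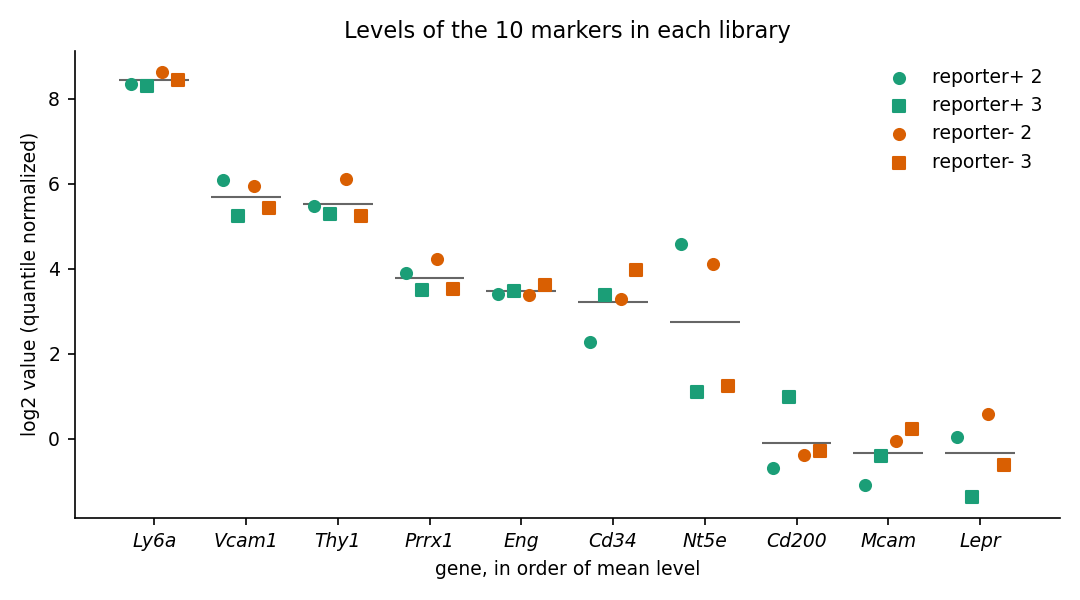
Quantile normalized log2 values (vertical axis) of the 10 markers (horizontal axis, in order of mean level) in the 2 reporter+ and 2 reporter- libraries; circles are libraries numbered 2, squares libraries numbered 3, and bars the means. *Ly6a* lies near 8.43 in all libraries, and *Nt5e* splits by number.

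By limma on all genes, 0 of the 10 markers passed an adjusted p of 0.05 between the populations, and neither did any of the 14415 genes (0%). Without adjustment, 0 of the 10 markers and 131 genes (0.909%) were below 0.05. With the number in the headings added to the fit as a block, 3 markers, *Cd34*, *Mcam* and *Lepr*, and 913 genes (6.33%) were below it, and 0 markers and 29 genes (0.201%) passed after adjustment. The adjusted p of each marker was 1 after rounding, and the intervals given below are 95% confidence intervals from the same fit. With 2 libraries against 2, an exact permutation test of a single gene cannot give a two-sided p below 0.333. The log2 difference was below 0 for 8 markers and above 0 for *Nt5e* and *Cd200*, with a median of −0.19 beside −0.0035 over all genes. Their median absolute difference was 0.252, beside 0.119 over all genes. In 5 markers, *Prrx1*, *Ly6a*, *Cd34*, *Mcam* and *Lepr*, the reporter+ value was lower within number 2 and within number 3, as it was for 24.8% of all genes. No marker was higher within both numbers (22.1% of all genes), and 5 had opposite signs (53.2%). Only in *Ly6a* and *Mcam* did the populations not overlap, both with reporter+ lower (8.1% of all genes), and in none with reporter+ higher (7.59%).

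**Figure D2:**
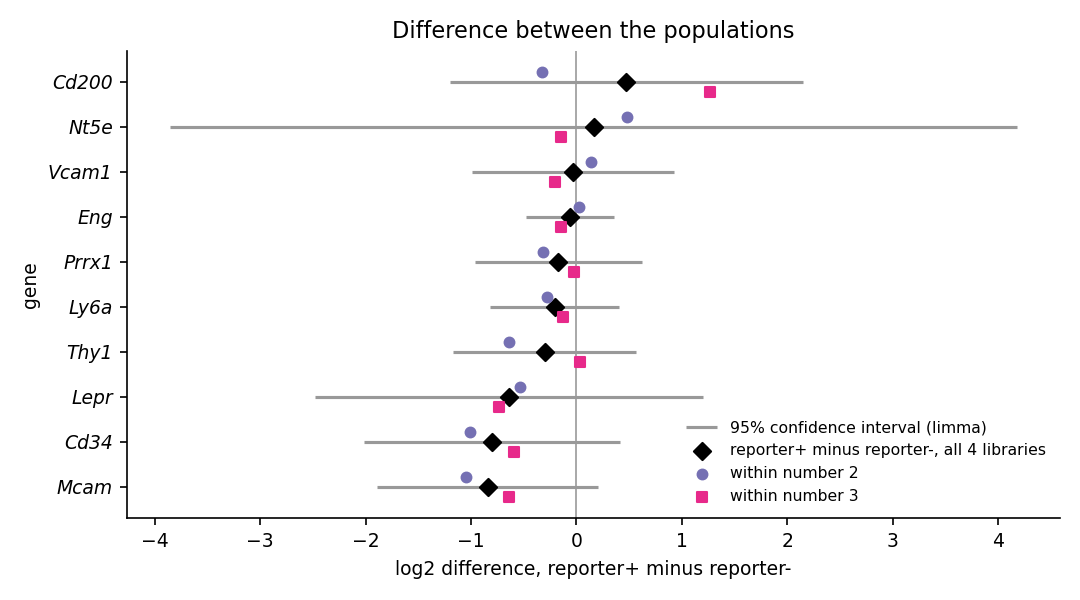
Log2 difference of reporter+ minus reporter- (horizontal axis) for each marker (vertical axis). Diamonds are the difference over all 4 libraries with its 95% confidence interval from limma (grey lines), circles the difference within number 2 and squares that within number 3. Every interval crosses 0, and *Mcam* and *Cd34* lie lowest.

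*Prrx1*, a homeobox transcription factor of limb and skeletal mesenchyme, was at 3.91 and 3.51 in the reporter+ libraries and at 4.22 and 3.53 in the reporter- libraries, numbers 2 and 3 in that order. Libraries numbered 2 were higher in each population, and the populations overlapped. The difference between populations was −0.17 (SE 0.30, interval −0.96 to 0.62). *Prrx1* lies on chr1:163245119-163313710 (GRCm38, minus strand) and shares no exonic base with another annotated gene.

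Among the surface proteins held by a GPI anchor, *Ly6a*, which encodes SCA-1, was at 8.35 and 8.31 in reporter+ and at 8.63 and 8.44 in reporter- cells. Both reporter+ libraries lay below both reporter- libraries, but the distance was small. The difference was −0.21 (SE 0.23, interval −0.82 to 0.41), a reporter- level 1.15-fold higher, and −0.11 without the reporter- library numbered 2. *Ly6a* (chr15:74994877-74998031, minus strand) has close relatives in the same cluster, and 19% of its 50-base words also occur in transcripts of *Ly6c1*, *Ly6c2*, *Ly6i* or I830127L07Rik, so that its counting is uncertain by as much as reads were divided among them. *Ly6c1* was at 5.80 and 6.25 in reporter+ and at 5.65 and 6.44 in reporter- libraries, well below *Ly6a*. *Ly6i* did not exceed −3.16 and *Ly6c2* did not exceed −3.02 in any library.

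*Thy1*, which encodes the CD90 glycoprotein of fibroblasts, T cells and neurons, was at 5.47 and 5.28 in reporter+ and at 6.10 and 5.24 in reporter- libraries. The reporter- library numbered 2 stood above the other three, which lay between 5.24 and 5.47, and the populations overlapped. The difference was −0.30 (SE 0.33, interval −1.17 to 0.57). *Thy1* (chr9:44043384-44048579, plus strand) and *Mcam* lie on the same strand of the same chromosome, 85889 bases apart.

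*Nt5e* encodes CD73, the ecto-enzyme that makes adenosine from AMP outside the cell. It was at 4.58 in reporter+ and 4.10 in reporter- libraries numbered 2, against 1.10 and 1.25 in those numbered 3. The libraries therefore divided by number and not by population. The difference between populations was 0.16 (SE 1.51, interval −3.86 to 4.18), and its interval was the widest of the 10. *Nt5e* lies on chr9:88327197-88372092 (plus strand) without an overlapping gene.

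*Cd34*, which encodes a sialomucin, was at 2.28 and 3.38 in reporter+ and at 3.28 and 3.97 in reporter- libraries. Reporter+ was lower by 1.01 on the log2 scale within number 2 and by 0.59 within number 3, whereas the reporter+ library numbered 3 slightly exceeded the reporter- library numbered 2. The overall difference was −0.80 (SE 0.46, interval −2.02 to 0.42), a reporter- level 1.74-fold higher, and 6.55% of all genes had a larger absolute difference. It was −0.25 without the reporter+ library numbered 2, −0.45 without the reporter- library numbered 3 and −1.35 without the reporter+ library numbered 3. *Cd34* (chr1:194938819-194961279, plus strand) shares 148 of its 7290 exonic bases with an antisense RNA, Gm16897, which had no value in any library.

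Among the immunoglobulin superfamily members, *Mcam*, the adhesion molecule CD146 of pericytes and endothelium, was at −1.10 and −0.40 in reporter+ and at −0.050 and 0.23 in reporter- libraries. Both reporter+ libraries lay below both reporter- libraries. The difference was −0.84 (SE 0.39, interval −1.89 to 0.21), a reporter- level 1.79-fold higher. It was the largest absolute difference of the 10, and 5.99% of all genes exceeded it. Without the reporter+ library numbered 2 it was −0.50. *Mcam* (chr9:44134469-44142727, plus strand) shares 17 exonic bases with the antisense Gm10687, which had no value in any library.

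*Vcam1*, the ligand of integrin α4β1 on leukocytes and a marker of stromal cells in bone marrow, was at 6.09 and 5.24 in reporter+ and at 5.95 and 5.44 in reporter- libraries. The values again followed the number, and the populations overlapped. The difference was −0.030 (SE 0.36, interval −0.99 to 0.93). *Vcam1* lies on chr3:116109949-116129688 (minus strand) and shares 61 exonic bases with Gm43109, an antisense gene whose symbol is absent from these data.

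*Cd200*, whose protein restrains myeloid cells through the receptor CD200R1, was at −0.70 and 0.97 in reporter+ and at −0.38 and −0.30 in reporter- libraries. The reporter+ library numbered 3 stood alone above the other three. Reporter+ was lower by 0.32 within number 2 and higher by 1.27 within number 3, for an overall difference of 0.47 (SE 0.63, interval −1.20 to 2.15). Without the reporter+ library numbered 3 the difference was −0.36, so the sign rested on that library. *Cd200* lies on chr16:45382135-45409053 (minus strand) without an overlapping gene.

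Among the receptors, *Lepr*, the leptin receptor that marks perivascular stromal cells of bone marrow, was at 0.045 and −1.36 in reporter+ and at 0.58 and −0.63 in reporter- libraries. Reporter+ was lower by 0.54 within number 2 and by 0.74 within number 3, but the populations overlapped because the numbers lay further apart. The difference was −0.64 (SE 0.69, interval −2.48 to 1.20), and it was 0.068 without the reporter+ library numbered 3 and −0.031 without the reporter- library numbered 2. *Eng*, the TGF-β co-receptor endoglin (CD105), was at 3.41 and 3.47 in reporter+ and at 3.39 and 3.61 in reporter- libraries. Its 4 values lay within 0.22, the narrowest range of the 10, and the difference was −0.061 (SE 0.16, interval −0.48 to 0.35). *Lepr* (chr4:101717404-101815352, plus strand) overlaps no annotated gene, and *Eng* (chr2:32646595-32682669, plus strand) shares 61 exonic bases with *Fpgs*, on the other strand, which was at 1.26 to 1.71.

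**Figure D3:**
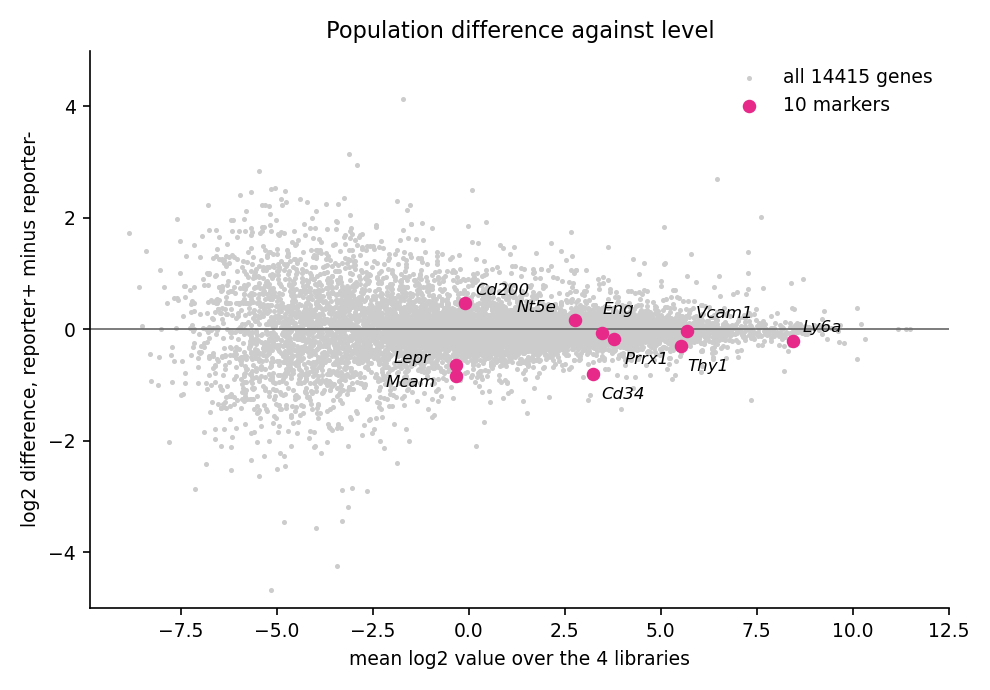
Log2 difference of reporter+ minus reporter- (vertical axis) against the mean log2 value over 4 libraries (horizontal axis), with 14415 genes in grey and the 10 markers in color. *Cd34* lies at −0.80 and a mean of 3.23, *Mcam* at −0.84 and a mean of −0.33, and *Vcam1* and *Eng* close to 0.

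*Cd34*, *Mcam* and *Lepr* were the 3 markers with the largest differences below 0, and the sequences before their start sites are given to show what these loci share and do not share. RefSeq (GRCm38.p6) had such a sequence for 7 of the 10 markers, and none of *Ly6a*, *Thy1* and *Vcam1* was among them. Up to 250 bases before the first listed start site are printed 5′ to 3′ on the gene's strand, as far as they lie outside an annotated exon of the gene. Capitals mark matches, on either strand, to the E-box CANNTG, the CCAAT box, the GC box GGGCGG, the TATA box TATAAA, the cyclic AMP response element TGACGTCA and the homeodomain core TAATTA. In 32851 promoters, the 250 bases held an E-box in 66.2%, CCAAT in 33.8%, GGGCGG in 32.7%, TATAAA in 12.4%, TAATTA in 4.84% and TGACGTCA in 1.55%. A base could count for several motifs.
Cd34, chr1:194938571-194938818: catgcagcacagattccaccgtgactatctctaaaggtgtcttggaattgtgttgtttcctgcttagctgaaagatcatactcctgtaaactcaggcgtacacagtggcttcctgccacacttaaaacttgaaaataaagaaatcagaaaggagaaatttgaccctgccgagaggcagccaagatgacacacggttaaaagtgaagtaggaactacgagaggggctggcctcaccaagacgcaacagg
Lepr, chr4:101717157-101717403: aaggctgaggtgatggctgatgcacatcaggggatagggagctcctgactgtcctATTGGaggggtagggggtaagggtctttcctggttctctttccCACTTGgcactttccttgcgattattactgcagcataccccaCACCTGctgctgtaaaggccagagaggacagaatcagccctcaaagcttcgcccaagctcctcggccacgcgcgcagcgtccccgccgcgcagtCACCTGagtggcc
Mcam, chr9:44134408-44134468: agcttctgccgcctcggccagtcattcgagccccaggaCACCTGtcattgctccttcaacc

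The sequence before *Cd34* held no match to any of the 6 motifs, and its 250 bases were 46.4% G and C, beside a median of 52.4% over all promoters. That of *Lepr* held 3 E-boxes and 1 CCAAT box, seen on the other strand as its complement. The 250 bases before *Mcam* were richest in G and C of the 3 (73.6%) and held 1 E-box, 5 GC boxes and 1 cyclic AMP response element, of which only the E-box falls in the 61 bases outside an exon. No motif was common to the 3 sequences. A match is a string of letters and not a site of binding.

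The study's own assay of *Lepr* by quantitative PCR covers a narrower target than the value analysed here, which is 1 number per symbol. Its primers are printed because they show which transcript such an assay reads.
Lepr forward primer: tggtcccagcagctatggt
Lepr reverse primer: acccagagaagttagcactgt

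Both primers matched 1 of 7 annotated *Lepr* transcripts and 1 of the 4 that code for protein. They lie in coding sequence of exon 19, its last exon, at chr4:101814575-101814593 and chr4:101814656-101814676, and enclose 102 bases. The log2 values of *Lepr* do not separate this transcript from the others.

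The number in the headings separated most of the markers, and most of all genes, more than the population did. The absolute difference between numbers exceeded that between populations in 8 of the 10, *Ly6a* and *Mcam* excepted, and in 75.7% of all genes. It had the same sign in reporter+ and reporter- cells in all 10, and in 73.8% of all genes. The median absolute difference between numbers was 0.613 for the markers and 0.314 for all genes. The libraries of the 2 numbers did not overlap in 5 markers with number 3 lower and in 3 with number 3 higher, beside 28.8% and 36.4% of all genes. In limma with population and number in the model, 6 markers and 3065 genes (21.3%) passed an adjusted p of 0.05, of which 1 marker was higher and 5 were lower in libraries numbered 3, where 11.5% and 9.79% of all genes were called in those directions. These calls rest on the trend of the variance on the mean: without it, 0 of the 14415 genes (0%) and 0 markers passed, with 5 markers and 3909 genes (27.1%) below 0.05 unadjusted. With the number alone in the model 3 markers passed, *Thy1*, *Cd34* and *Lepr* being lost, and in that model leaving out any of the 4 libraries left 1 or 2. With a pseudocount of 1, *Prrx1* and *Thy1* were lost.

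*Nt5e* had the largest difference between numbers. It was lower in number 3 by 3.16 on the log2 scale (SE 0.17, adjusted p = 1.42e-05 by limma, 0.0545 without the trend), which is 8.96-fold, and only 1.01% of all genes had a larger absolute difference. It was lower by 3.48 in reporter+ and by 2.85 in reporter- cells. *Lepr* was lower in number 3 by 1.31 (SE 0.26, adjusted p = 0.00799, 0.0641 without the trend), or 2.48-fold, with nearly equal steps of 1.41 in reporter+ and 1.21 in reporter- cells.

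*Vcam1* was lower in number 3 by 0.68 (SE 0.13, adjusted p = 0.00642), *Prrx1* by 0.54 (SE 0.13, adjusted p = 0.0168) and *Thy1* by 0.53 (SE 0.16, adjusted p = 0.0475). For *Thy1*, the step was 0.87 in reporter- and 0.19 in reporter+ cells, and its call was also lost when only genes with a mean of at least 0 were tested. *Cd34* was the only marker called higher in number 3, by 0.90 (SE 0.14, adjusted p = 0.00267, 0.111 without the trend), or 1.86-fold. It was higher by 1.10 in reporter+ and by 0.69 in reporter- cells.

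*Cd200* was 0.88 higher in number 3 (SE 0.36, adjusted p = 0.121), with a step of 1.67 in reporter+ and 0.081 in reporter- cells, and *Mcam* was 0.49 higher (SE 0.27, adjusted p = 0.231). *Ly6a* (−0.11, interval −0.48 to 0.25) and *Eng* (0.14, interval −0.15 to 0.42) had the smallest absolute differences between numbers. Genes of other cell types differed with the number as well. The 5 adipocyte markers summed to 2.80 and 2.63 on the log2 scale in number 2 and to 7.16 and 8.11 in number 3, reporter+ first, and *Lpl*, *Fabp4* and *Pparg*, the 3 with 4 values, all passed as higher in number 3 with the trend, beside 11.5% of all genes. *Adipoq* was blank in reporter+ and at −5.69 in reporter- libraries numbered 2, against 2.74 and 5.20 in number 3. Of 4 chondrocyte markers, 3 had 4 values, and 2 of these were called lower in number 3 with the trend, beside 9.79% of all genes. These were *Col2a1* with a log2 difference of −3.14 and *Acan* with −3.54. *Comp*, the highest of the 3, was not called, with a difference of 0.18. It was at 8.09 and 7.97 in reporter+ and at 7.06 and 7.53 in reporter- libraries. Of the 9 macrophage markers with 4 values, 5 were called higher, beside 11.5% of all genes. These calls were also absent without the trend. The part of any of these cells in the differences of the 10 markers was not tested.

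**Figure D4:**
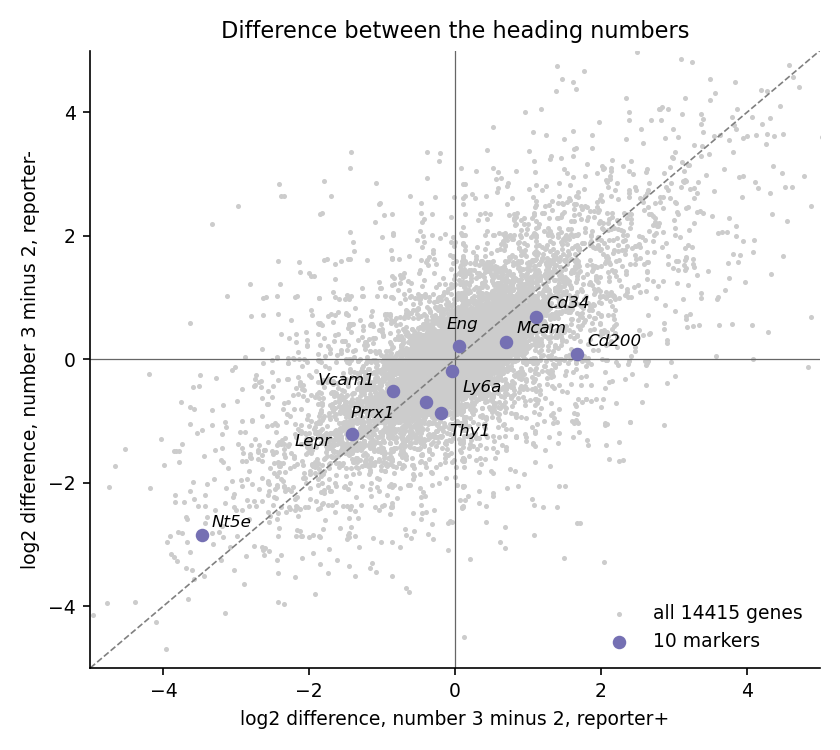
Log2 difference of number 3 minus number 2 in reporter+ (horizontal axis) and reporter- cells (vertical axis), with 14415 genes in grey, the 10 markers in color and equal differences on the dashed line; 49 genes lie beyond the axes. *Nt5e* lies at −3.48 and −2.85, and *Cd200* lies far from the line.

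Markers of the cells that the sort was set to remove, or that carry some of the same antigens, were read in the same libraries. *Mcam*, *Cd34* and *Eng* are also endothelial genes. Of 10 endothelial markers, 8 had 4 values, and 7 of these had a difference below 0 (median −1.30). None of the 8 passed after adjustment, and 4 were below 0.05 before it, beside 0.909% of all genes. In these 4, *Pecam1*, *Cdh5*, *Kdr* and *Emcn*, the populations did not overlap, with reporter+ lower (8.1% of all genes). All 10 endothelial markers together summed to 0.81 and 0.75 on the log2 scale in reporter+ and 1.75 and 2.16 in reporter- libraries. The largest value in that sum was *Erg* in number 2 (0.40 and 0.96) and *Tek* in number 3 (0.052 and 1.10), reporter+ first. In both of these genes the populations overlapped. *Pecam1*, which encodes the CD31 of the sort, was at −4.68 and −4.79 in reporter+ and at −1.99 and −1.11 in reporter- libraries, and *Cdh5* at −4.75 and −6.40 against −1.97 and −0.67. Both were therefore low everywhere and lower in reporter+ cells, in the direction of *Mcam* and *Cd34*, whereas *Eng* was flat. The part of endothelial cells in the values of *Mcam* and *Cd34* was not tested.

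Of 10 mural markers, 9 had 4 values, 5 with a difference below 0 and 4 above it (median −0.36). None passed after adjustment, and 2, *Myh11* and *Actg2*, were below 0.05 before it, beside 0.909% of all genes. The populations did not overlap in 3 with reporter+ lower (8.1% of all genes) and in 3 with reporter+ higher (7.59%). They summed to 3.56 and 4.40 in reporter+ and to 4.44 and 4.74 in reporter- libraries. *Myh11* was at −2.87 and −3.29 against −0.80 and −0.57, while *Rgs5*, a pericyte gene, was at −3.56 and −1.08 against −3.32 and −1.49 and followed the number. The 3 without overlap below 0, in the direction of *Mcam*, were *Myh11* (−2.39, SE 0.44), *Actg2* (−2.10, SE 0.46) and *Notch3* (−0.36, SE 0.23). Those above 0 were *Kcnj8* (0.94, SE 0.42), *Abcc9* (0.44, SE 0.27) and *Mylk* (0.35, SE 0.21). *Myh11* and *Actg2* encode smooth muscle proteins, but so does *Mylk*, which lay above 0. *Kcnj8* and *Abcc9* are pericyte genes, as is *Rgs5*, whose difference was 0.084 (SE 1.12) with overlap. *Tagln* (−1.17, SE 0.67) and *Cnn1* (−0.76, SE 0.54) lay below 0, also with overlap. All of these genes but *Myh11* and *Rgs5* were named after their values were seen. For *Mcam*, a pericyte antigen, the part of mural cells was not tested either. All 9 macrophage markers with 4 values had a difference above 0 (median 1.08). None passed after adjustment, and 3, *Cd68*, *C1qa* and *C1qb*, were below 0.05 before it, beside 0.909% of all genes. The populations did not overlap in 7 of the 9, all with reporter+ higher (7.59% of all genes), *Csf1r* and *Mpeg1* being the exceptions. The 10 summed to 7.84 and 8.07 in reporter+ and to 6.46 and 7.43 in reporter- libraries. Most of that sum was *Lyz2*, at 7.65 and 7.88 against 6.27 and 7.25. Among the 7, *C1qb*, which encodes a chain of complement C1q, had a difference of 1.48 (SE 0.27) and *Adgre1* one of 1.13 (SE 0.55). *Csf1r* was at 1.08 and 1.60 against −0.11 and 1.13, and *Ptprc*, which encodes the CD45 of the sort, at −1.28 and −0.39 against −2.30 and −1.22. The part of macrophages in the values of the 10 markers was not tested. Blanks among the defining genes of these lists were limited to *Tie1* in the reporter+ library numbered 3 and *Cldn5* in that numbered 2 for endothelium, *Fcgr1* in the reporter- library numbered 2 for macrophages, and *Higd1b* in all libraries for mural cells.

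**Figure D5:**
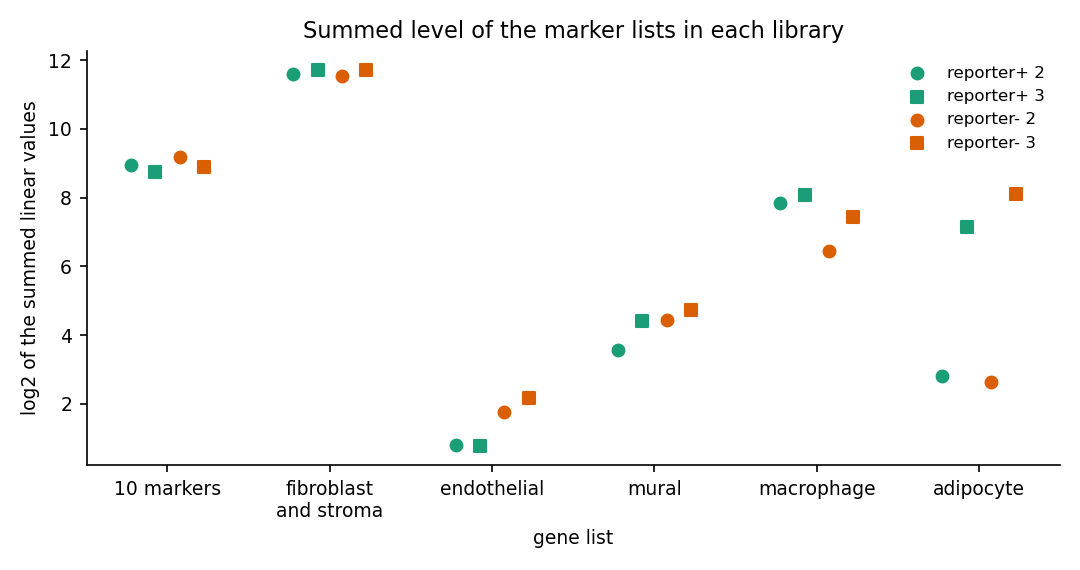
Log2 of the summed linear values (vertical axis) of the 10 markers and of lists of cell type genes (horizontal axis) in each library; green is reporter+, orange reporter-, circles number 2 and squares number 3. Endothelial sums lie lower and macrophage sums higher in reporter+ cells, and adipocyte sums divide by number. The sum of the 10 markers stays between 8.75 and 9.19. Most of it is *Ly6a* (8.31 to 8.63), so it does not show the steps of the other markers. Most of the macrophage sum is *Lyz2* (6.27 to 7.88).

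Other skeletal stem and progenitor genes were read in the same way. Of 35, 34 had 4 values, 23 with a difference below 0 and 11 above it (median −0.10), with 0 called after adjustment and 3 below 0.05 before it, beside 0.909% of all genes. Of these 3, *Nes* had a difference below 0, and *Fap* (1.06, SE 0.19) and *Ctsk* (0.39, SE 0.13), named after their values were seen, had differences above 0 without overlap. Of the 34, 4 did not overlap with reporter+ lower (8.1% of all genes) and 2 with reporter+ higher (7.59%). The 3 with the largest difference at a mean log2 value of at least 0 were all lower in reporter+ cells. *Nes*, which encodes the intermediate filament nestin, was at −0.043 and −0.83 in reporter+ and at 1.05 and 1.41 in reporter- libraries, a difference of −1.67 (SE 0.39) with no overlap. *Acta2*, smooth muscle actin, was at 1.30 and 3.66 against 3.18 and 4.32, a difference of −1.27 (SE 0.89). *Postn*, the matrix protein periostin of the periosteum, was at −1.13 and 2.04 against 0.14 and 3.04, a difference of −1.14 (SE 1.45). Between numbers, 10 of the 34 were called higher and 9 lower in number 3 with the trend, beside 11.5% and 9.79% of all genes, *Acta2* and *Postn* among the higher, and none without the trend.

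The ligands, receptors and partners of the 10 markers were present for most of them. Of 27, 24 had 4 values, 15 with a difference above 0 and 9 below it (median 0.042), and 0 passed the test. The populations did not overlap in 3 with reporter+ lower (8.1% of all genes) and in 1 with reporter+ higher (7.59%). *Lep*, the ligand of *Lepr*, was blank in all libraries. *Jak2* and *Stat3*, through which the leptin receptor signals, lay between 2.08 and 2.59 and between 5.59 and 5.82. For *Eng*, the receptor *Tgfbr2* lay between 4.72 and 4.98, a difference of −0.16 (SE 0.14) with no overlap. For *Nt5e*, *Adora2b*, a receptor for the adenosine it makes, was at 1.25 and 1.18 in reporter+ and at 1.74 and 1.76 in reporter- libraries, a difference of −0.54 (SE 0.20) with no overlap and no step between numbers (−0.026). The partners of *Thy1* with the largest differences were integrin chains, *Itgam* at 0.50 and 1.38 against −0.76 and 0.67 and *Itgb3* at 0.98 and 0.11 against 1.52 and 0.72. *Itgam* is also a gene of myeloid cells. *Lep*, *Jak2*, *Stat3* and *Tgfbr2* were named after their values were seen.

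Relatives and neighbours of the markers showed no common direction. Of 16, 10 had 4 values, with 6 differences below 0 and 4 above it, and 0 passed the test. The 3 with the largest differences at a mean of at least 0 were *Icam1* (0.38, SE 0.30), *Ly6e* (0.23, SE 0.14) and *Snx14* (0.16, SE 0.41). *Prrx2*, the relative of *Prrx1*, lay between 4.71 and 5.28, above *Prrx1* in every library, and *Leprot*, a neighbour of *Lepr*, between 4.55 and 4.89, where *Lepr* did not exceed 0.58. *Prrx2* and *Leprot* were also named after their values were seen.

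For *Mcam* and *Cd34*, the genes with the most similar pattern were sought among the 10224 genes whose mean log2 value was at least 0, by the Euclidean distance of the 4 values after each gene was centred on its own mean. Nearest to *Mcam* were *Fam198b* (distance 0.20), *Prl2c3* (0.21) and *Gstm7* (0.23), with population differences of −0.96, −0.85 and −0.64. Nearest to *Cd34* were *Vit* (0.073), *C1qtnf2* (0.30) and *Ccl11* (0.35), with population differences of −0.75, −0.78 and −0.83 and number differences of 0.91, 0.87 and 0.66. *Vit*, which encodes the matrix protein vitrin, was at −0.59 and 0.47 in reporter+ and at 0.31 and 1.07 in reporter- libraries. With 4 values per gene, such a likeness is a description of these libraries.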

How the data were processed

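Stranded paired-end libraries of total RNA were made for the study, and a core facility ran them on an Illumina sequencer. The paper names Partek Genomics Suite among the software used for the analysis. The submitters' processing notes name bcl2fastq 2.17.1.14, Partek 7.0 and GRCm38.p6. The deposited values are log2 expression values, quantile normalized, 1 per gene symbol and library, with blanks where there was no signal. The linear unit, aligner, annotation and strand setting are not given in the sources used here, and depth and counting error are unknown.

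From these, log2 differences were fitted in R 4.3.3 by limma 3.58.1 (two-sided, with a mean-variance trend and no block) over the 14415 genes with 4 values, with Benjamini-Hochberg adjustment over all of them and a threshold of 0.05. The difference between heading numbers used population and number in the model. The fits were run on simulated data whose variance followed the fitted trend. Those runs cannot check the calls that rest on the trend. Tables were made in Python 3.11.15 with pandas 2.3.3 and numpy 2.4.6. Positions, overlaps and shared 50-base words came from GENCODE M21 by symbol. Genes named are the 10 markers, the 3 of each list with the largest absolute difference at a mean log2 value of at least 0, *Pdgfra*, genes bearing on counting, defining markers of other cell types, and the 3 genes nearest in pattern to *Mcam* and *Cd34*. The alternatives were a block, no trend, a filter at 0, 2 centrings, pseudocounts of 1 and 0.1, filled blanks, and each library left out. Leaving out a library for the number comparison was chosen after seeing the data. The markers and gene lists were chosen with earlier results of these data known. The result for 1 gene of the lists is not reported here.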

Additional observations from a re-analysis of the deposited data

Results flagged for a closer look

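In 5 of the 10 markers the reporter+ value lay on opposite sides of the reporter- value within the 2 heading numbers, as it did in 53.2% of all genes, and with 1 library per population and number the difference was not tested. The log2 difference of reporter+ minus reporter- was −0.64 within number 2 and 0.038 within number 3 for *Thy1*. It was 0.48 and −0.15 for *Nt5e*. It was 0.14 and −0.20 for *Vcam1*, and 0.024 and −0.15 for *Eng*. *Cd200* had the widest gap, with −0.32 within number 2 and 1.27 within number 3, where the reporter+ library numbered 3 stood at 0.97.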

How the results depend on the processing

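Across the 9 settings that kept all 4 libraries, the population difference of each of the 10 markers kept its sign wherever it was tested, and none was called. With the replicate block, that is the heading number added to limma, 29 genes passed in place of 0 (22 higher and 7 lower in reporter+), and again 0 of the markers, the lowest adjusted p being 0.0744 for *Cd34*. Before adjustment, 3 markers and 913 genes (6.33%) were below 0.05 with the block, against 0 and 131 without it. The deviations of libraries with the same number from their population means had a correlation of 0.681 across genes, but neither the labels nor the methods state that a number marks a pair. Without the trend the block gave 0 genes. Leaving out each library in turn moved the median difference of the markers between −0.48 and 0.051, and the lone library was then assumed to vary like the others. Signs turned for *Prrx1* (−0.51 to 0.17), *Thy1* (−0.73 to 0.13), *Nt5e* (−1.58 to 1.90), *Vcam1* (−0.46 to 0.40), *Cd200* (−0.36 to 1.31), *Lepr* (−1.34 to 0.068) and *Eng* (−0.17 to 0.050), and held for *Cd34* (−1.35 to −0.25), *Mcam* (−1.19 to −0.50) and *Ly6a* (−0.30 to −0.11).

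Between heading numbers, 3065 genes and 6 markers were called. Without the variance trend 0 genes and 0 markers passed, with the number alone 2208 genes and 3 markers, and with a pseudocount of 1 1825 genes. With the number alone and a library left out, 225 to 1034 genes and 1 to 2 markers passed, with fewer libraries in the fit. There the sign of *Ly6a* (lowest −0.25, highest 0.025) and of *Mcam* (highest 1.01, lowest −0.035) turned. The cause of these changes was not tested. Unknown depth limits what can be said of the low markers *Cd200*, *Mcam* and *Lepr*.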
